A study of Saccharomyces cerevisiae with 24 samples.

Results

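The genes that encode the proteins of the small (40S) ribosomal subunit of budding yeast were followed through mutants of the transcriptional repressors Yhp1 and Yox1. The members are the 56 genes from RPS0 to RPS31, chosen by gene name among 7126 gene identifiers in each table. They encode 32 proteins, 24 of them from 2 paralogous genes (an A and a B copy) and 8 from a single gene. All 56 passed the filter on low values in both sets of samples.

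RNA-seq covered 24 samples in 2 sets of 12, with 4 strains per set and 3 biological replicates per strain, and each group is 1 strain of the BY4741 (S288C) background. All strains are MATa haploids with ura3, leu2 and his3 deletion alleles, LEU2 being restored by a marker where one is listed, and asynchronous cultures grew in YM-1, a rich medium, containing 2% dextrose. In the phosphomutant set, Cdk1 phosphorylation sites were changed to alanine. Wild type A is met15Δ0 and carries YOX1-3V5-KanMx and YHP1-13MYC-LEU2. The yhp1-13A strain is met15Δ0 with yhp1-13A-13MYC-LEU2, and no tag is listed for its YOX1. The yox1-9A strain is met15Δ0 with yox1-9A-3V5-KanMx, and no tag is listed for its YHP1. The double phosphomutant, yhp1-13A yox1-9A, is met15Δ0 and carries both tagged mutant genes. In the deletion set, wild type B is the same strain as wild type A, grown alongside the deletions. The yhp1 deletion (yhp1Δ::LEU2) is lys2Δ0, whereas the yox1 deletion (yox1Δ::KanMX) and the double deletion (yox1Δ::NatMX yhp1Δ::LEU2) are met15Δ0. Differences between a mutant and its wild type can therefore also hold the effects of tags and markers, which cannot be told apart from the mutation. LEU2 itself had 0.0441 TPM (the length-scaled abundance of a transcript within its library) in yox1-9A and 0.0426 TPM in the yox1 deletion, which list no LEU2 marker, and strain means of 56.8 to 126 TPM elsewhere.

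The small subunit reads the messenger RNA, and its head, body and platform hold the decoding centre together with ribosomal RNA. Ribosomal protein genes are among the most actively transcribed genes of growing yeast. In most of them Rap1 binds upstream of the gene and recruits Fhl1 and Ifh1, and the Tor and Sch9 kinases couple transcription to nutrients through Ifh1 and Sfp1. Yhp1 and Yox1 are homeodomain proteins that repress genes together with Mcm1 in the cell cycle, and ribosomal protein genes are not their classical targets. RPS18A and RPS18B are of particular interest here because they neighbour YHP1 and YOX1 on the chromosome.

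RPS18A (YDR450W) lies on chromosome IV (R64 build, 1359923 to 1360798, plus strand) and YHP1 on the opposite strand at 1361120 to 1362181, so that both genes point towards each other across 321 bases. RPS18B (YML026C) lies on chromosome XIII (222987 to 223828, minus strand) and points towards YOX1 (221406 to 222563, plus strand) across 423 bases. In both places the part between the genes adjoins the 3′ end of the tagged or deleted gene, and no other annotated gene overlaps it. The windows upstream of both copies are shown because each holds a match to CCNTACAT, part of the sequence that Rap1 recognises. The capitals mark the match, and each window is printed 5′ to 3′ on the strand of its gene, from RefSeq R64. The match starts 323 bases before the start codon of RPS18A (chrIV:1359578-1359629) and 370 bases before that of RPS18B (chrXIII:224169-224220).
RPS18A: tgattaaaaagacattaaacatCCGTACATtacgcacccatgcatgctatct
RPS18B: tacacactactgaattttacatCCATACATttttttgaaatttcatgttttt
CCNTACAT was searched on both strands of the 500 bases before the start codon, and it was found for 25 of 56 members (44.6%). The same match was found for 5.6% of 6019 genes and for 40.7% of 81 genes of large (60S) subunit proteins. The stricter spelling CCCATACA, which overlaps it, was found for 23.2% of members and 1.9% of all genes. TAATTA, a core that many homeodomain proteins bind, was found for 21.4% of members against 24.9% of all genes. The palindrome of the Mcm1 box was found for 55.4% of members against 49.1% of all genes. These counts describe letters in a window and no binding was measured.

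The copies of a pair can be told apart by their reads only where their sequences differ. The stretch of RPS18A and RPS18B with the most differences (coding bases 202 to 276) is shown with the 8 differing bases in capitals.
RPS18A: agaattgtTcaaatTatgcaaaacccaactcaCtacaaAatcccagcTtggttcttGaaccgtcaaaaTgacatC
RPS18B: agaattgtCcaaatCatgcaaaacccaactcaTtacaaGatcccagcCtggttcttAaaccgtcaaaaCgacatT
Over their whole coding sequence the RPS18 copies were 94.8% identical, and their longest shared run was 56 bases. Identity over the 24 pairs ran from 84.3% (RPS27) to 99.2% (RPS6). The authors kept fragments of mapping quality above 20. In most pairs, every stretch of 100 coding bases was unique in the genome. In the RPS4 and RPS24 pairs 86.8% and 82.9% of such stretches were unique. In the RPS6 pair only 46.6% were, so that the levels of RPS6A and RPS6B are uncertain.

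The members shared gene structure beyond their names. Of the 56, 36 contain an intron (64.3%), against 5.47% of all 6013 coding genes matched. Their median coding length was 432 bases (1197 over all coding genes) and their median coding GC content 43.0% (39.8% over all). They lie on 14 chromosomes. By their place in the subunit, 22 genes encode 14 head proteins and 34 encode 18 proteins of the body and platform.

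The phosphomutant samples held 16.97 to 18.26 M recovered fragments and the deletion samples 18.12 to 18.87 M. At this depth the least abundant member in any sample still had 1520 fragments, so counting error was small for all members. YHP1 had a mean of 0 TPM in the yhp1 deletion and 0.0141 TPM in the double deletion, against 33.2 TPM in wild type B, and YOX1 had 0.831 and 1.63 TPM in the yox1 and double deletions against 96.0 TPM. All 7 a-specific genes were above 1 TPM in every sample, with summed levels of 6960 to 14700 TPM, as in MATa cells. Of 4 alpha-specific genes 3 were also above 1 TPM in every sample of each set. The 4 summed to only 28.4 to 42.4 TPM. In the phosphomutant set the samples fell into 6 whose deviation from the set mean fell with the GC content of genes and 6 in which it rose, and both kinds occurred in each strain. For several members this split is given beside the result.

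Together the members took 14.35% to 18.38% of all TPM in a sample. In the phosphomutant set their mean share was 16.34% ± 0.31 (SD, n = 3) in wild type A. It was 17.00% ± 0.47 in yhp1-13A and 16.86% ± 0.25 in yox1-9A, and 17.16% ± 1.06 in the double phosphomutant. In the deletion set it was 15.72% ± 0.55 in wild type B, 15.47% ± 0.07 in the yhp1 deletion, 14.91% ± 0.54 in the yox1 deletion and 15.63% ± 0.31 in the double deletion. The 60S protein genes took 17.6% to 19.9% and 16.4% to 17.8% in the same sets. The highest share of the members was in replicate 2 of the double phosphomutant (18.38%), and its other replicates had 16.49% and 16.61%, within or near the wild type range of 15.99% to 16.60%. All yhp1-13A samples lay above that range (16.67% to 17.53%), and those of yox1-9A ranged from 16.58% to 17.01%. The lowest share of any sample was in replicate 1 of the yox1 deletion (14.35%), whose other replicates had 14.96% and 15.43%. TPM is a share of the library, so a change in RNA per cell cannot be seen.

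In wild type cells, 51 of 56 members exceeded 1000 TPM in both sets, and 34 (wild type A) and 33 (wild type B) were among the 100 most abundant genes. The median member had 2691 and 2503 TPM, whereas the median over all 7126 gene identifiers, tested or not, was 31.6 and 30.6 TPM. These TPM values are per gene length, which is the coding length for the members, so comparisons between genes allow for length only. Reads lost between near-identical copies and the GC trend of samples still limit such comparisons.

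**Figure D1:**
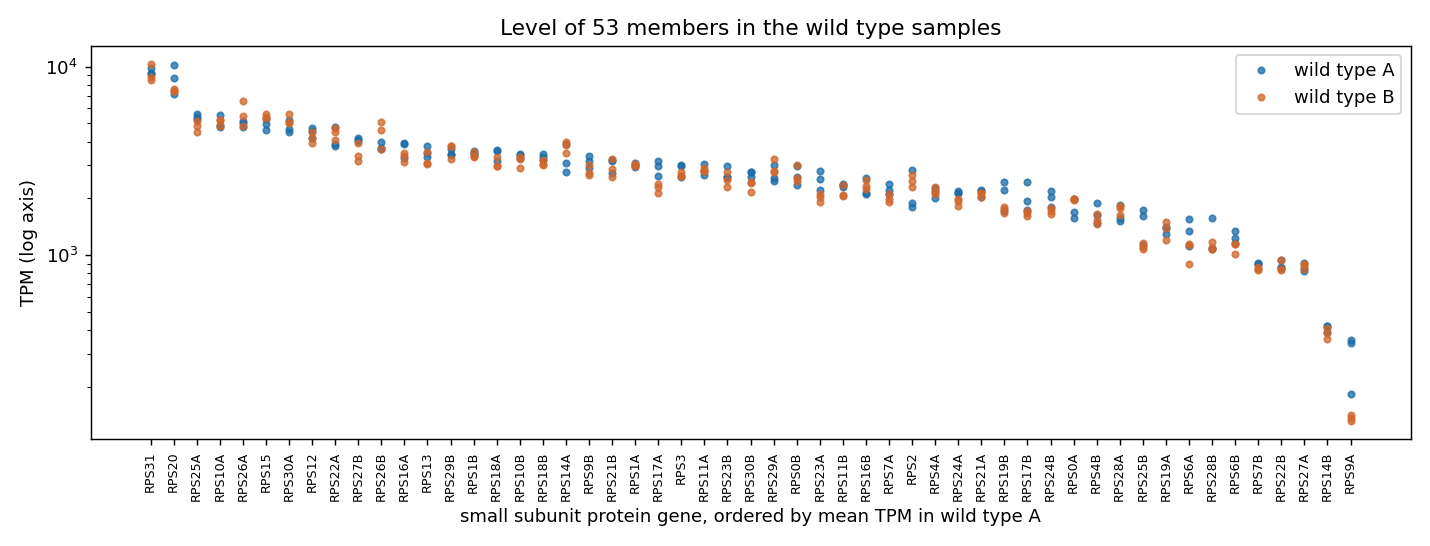
TPM (log axis) of 53 members in the 3 replicates of wild type A (blue) and wild type B (orange), ordered by their mean in wild type A. RPS31 and RPS20 lead in both sets, and RPS9A and RPS14B are the lowest members in both.

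RPS31 and RPS20, which encode head proteins from single genes, were the most abundant members. RPS31 (YLR167W), whose product is made as a fusion of ubiquitin with a protein of the beak, had 9218, 9801 and 9121 TPM in wild type A and 8755, 8522 and 10344 TPM in wild type B. RPS20 (YHL015W), for a head protein near the mRNA, had 8710, 10218 and 7144 TPM in wild type A and 7404, 7411 and 7573 TPM in wild type B. The replicates of RPS31 and RPS20 overlapped in wild type A and not in wild type B. RPS26A (YGL189C), for a platform protein at the mRNA exit channel, was the third in wild type B with 5625 TPM ± 845 (SD, n = 3).

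The least abundant members were minor copies of pairs. RPS9A (YPL081W), for a body protein known for its part in translational accuracy, had 292 TPM ± 95.04 in wild type A and 137 TPM ± 5.06 in wild type B. RPS14B (YJL191W), for a platform protein, followed with 408 TPM ± 17.5 and 384 TPM ± 24.1. The third was RPS27A in wild type A (862 TPM ± 40.8) and RPS7B in wild type B (845 TPM ± 17.6), which did not differ there from RPS22B (867 TPM ± 59.3) or RPS27A (874 TPM ± 27.3) beyond their spread.

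Summed over both copies, the proteins were closer in mRNA level than the genes were. RPS26 was the highest in wild type B with 10070 TPM ± 1530, followed by RPS31 with 9207 TPM ± 992, within the spread of both. In wild type A, RPS31 (9380 TPM ± 368) led RPS26 (8756 TPM ± 252) and RPS20 (8691 TPM ± 1540). The RPS10 pair, for a protein of the beak, had 8431 TPM ± 503 and 8219 TPM ± 405. RPS2, for a protein of the mRNA entry site, was the lowest in wild type A with 2173 TPM ± 559 from its single gene. RPS6, a body protein phosphorylated downstream of Tor, was the lowest in wild type B with 2161 TPM ± 214, a level that is uncertain because its copies are nearly identical. The 8 single-copy genes had a median of 4708 TPM in wild type A and the 48 paired genes 2428 TPM (4731 and 2228 TPM in wild type B). Members without an intron had a median of 3479 TPM and those with one 2305 TPM in wild type A (3489 and 2175 TPM in wild type B). Members with a CCNTACAT match had a median of 2917 TPM and those without one 2340 TPM in wild type A (2682 and 2164 TPM in wild type B). In wild type A those with a match ranged from 902 to 5784 TPM, inside the wider range of those without one, 292 to 9380 TPM. In wild type B the ranges were 845 to 5430 TPM and 137 to 9207 TPM.

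No member was called in any mutant. In each of the 6 comparisons with wild type, 0 of 56 members were called higher or lower by limma at an adjusted p below 0.1. Few genes were called at all. The share of tested genes called in either direction was 0%, 0.285% and 0.0158% for the yhp1, yox1 and double phosphomutants, and 0.127%, 0.364% and 0.634% in the yhp1, yox1 and double deletions. At an unadjusted limma p below 0.05 there were 0, 0 and 1 members in the 3 phosphomutants in this order, beside 1.06%, 3.82% and 2.64% of tested genes, and 0, 8 and 1 in the 3 deletions, beside 1.2%, 4.02% and 3.71%. With limma-voom on the recovered fragments 0 members were called in all 6 comparisons. The smallest adjusted p of any member was 0.83 in the phosphomutant set (RPS9A among others, yhp1-13A yox1-9A) and 0.87 in the deletion set (RPS30A, yox1 deletion).

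Some members did not overlap between a mutant and its wild type. In yhp1-13A 2 members were higher in every sample than in wild type A (0.538% of tested genes) and 0 were lower (2.82%). For yox1-9A these counts were 1 (1.74%) and 0 (5.81%), and for the double phosphomutant 1 (1.09%) and 0 (3.42%). Against wild type B the yhp1 deletion had 0 higher (1.68%) and 1 lower (1.36%), and the double deletion 2 higher (4.8%) and 3 lower (4.41%). The yox1 deletion had 0 higher (3.15%) and 6 lower (2.69%). These 6 gave the widest gap in percentage points between members and background among these counts, though not the widest as a ratio.

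The measurements bounded the size of a change. For the median member, the 95% interval of the log2 fold change reached 0.25 to either side for the phosphomutants and 0.17 for the deletions. The whole interval lay within 0.5 of zero for 50, 53 and 50 of 56 members in the yhp1, yox1 and double phosphomutants, and for 56, 55 and 55 members in the yhp1, yox1 and double deletions. The median residual SD of members on the log2 scale was 0.127 among phosphomutant samples (0.237 over all tested genes) and 0.089 among deletion samples (0.183 over all). Members are far more abundant than the median of all gene identifiers, and genes of like abundance were not compared.

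**Figure D2:**
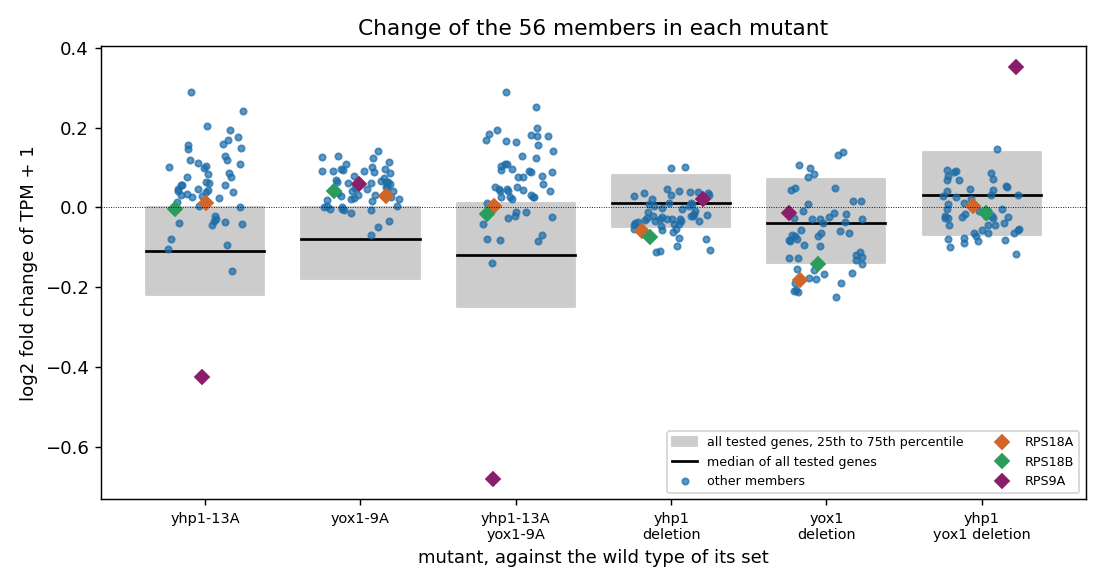
Log2 fold change of TPM + 1 of each member (points) in the 6 mutants against the wild type of their set, with RPS18A, RPS18B and RPS9A as coloured diamonds. The grey box spans the 25th to 75th percentile of all tested genes and the black line their median. Most members sit above the box in the phosphomutants and within or near it in the deletions, and none was called.

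The medians of the members and of all genes differed in the phosphomutant set. The members' median log2 fold change was 0.05 in each of the 3 phosphomutants, where the median of all tested genes was -0.11 (yhp1-13A), -0.08 (yox1-9A) and -0.12 (both). Leaving out 1 sample moved the members' medians to between 0.03 and 0.07, 0.03 and 0.06, and 0 and 0.08, the 0 being without replicate 2 of the double phosphomutant. Relative to those medians, 54, 56 and 54 of the 56 members were on the higher side. The 3 comparisons share the same wild type A samples and members are not replicates, so these counts are not independent. In the deletion set the members' medians were -0.02, -0.07 and -0.01 in the yhp1, yox1 and double deletions, beside 0.01, -0.04 and 0.03 for all genes, and 13, 22 and 19 members were above the median of all genes. The median of the yox1 deletion was -0.03 without its replicate 1. The 60S protein genes had medians of 0.01, 0.05 and 0.04 in the phosphomutants and -0.02, -0.06 and 0.00 in the deletions. Scaling by median of ratios moved the median of all genes by 0.11, 0.09 and 0.12 in the phosphomutants, and the members' medians became 0.16, 0.15 and 0.18. Among samples with a falling GC trend, the members' median in the double phosphomutant was 0.02 (1 mutant and 2 wild type samples, all genes -0.04), and among those with a rising trend it was 0.08 (2 mutant samples and 1 wild type sample, all genes -0.03). The part of GC content in this difference was not tested further.

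Head and body proteins gave like values. The median log2 fold change of head genes was 0.03 in the double phosphomutant and that of body and platform genes 0.08. In the yox1 deletion the medians were -0.09 and -0.07, and in the double deletion -0.02 and -0.01. Members with and without an intron had medians of 0.05 and 0.07 in the double phosphomutant and -0.01 and -0.02 in the double deletion.

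In the double phosphomutant, the largest increases were those of RPS2, RPS14A and RPS21A. RPS2 had 1899, 1805 and 2816 TPM in wild type A and 2042, 3077 and 2794 TPM in the double mutant. The groups overlapped, and the difference was 0.29 on the log2 scale (SE 0.225, limma adjusted p = 0.83). RPS14A, the major copy of its pair, had 3069, 2762 and 3891 TPM in wild type A and 2889, 4584 and 4204 TPM in the mutant (0.25, SE 0.207, limma adjusted p = 0.83). The low samples of RPS2 and of RPS14A in both strains were those with a falling GC trend. Over the whole set RPS14A had 2762 to 3233 TPM in the falling samples and 3891 to 4584 TPM in the rising samples. RPS21A, for a small body protein, had 2036, 2174 and 2220 TPM in wild type A and 2224, 2684 and 2490 TPM in the mutant, without overlap, and the log2 fold change of 0.20 was not called (SE 0.106, limma adjusted p = 0.83). Over all tested genes, 1.09% were higher without overlap in this comparison, and RPS21A was the only member to be so.

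The largest decreases in the double phosphomutant were those of RPS9A, RPS25B and RPS19B. RPS9A had 341, 352 and 182 TPM in wild type A and 232, 174 and 131 TPM in the mutant. The groups overlapped, and the log2 fold change of -0.68 was the largest of any member in any comparison (SE 0.292, 95% interval -1.32 to -0.04), with a limma p of 0.039 and an adjusted p of 0.83. It was the only member at an unadjusted p below 0.05 in this mutant. RPS25B, for a head protein at the tRNA exit side, had 1608, 1734 and 1132 TPM in wild type A and 1700, 1294 and 1073 TPM in the mutant, and the log2 fold change was -0.14 (SE 0.215). RPS19B, another head protein, had 2217, 2429 and 1706 TPM in wild type A and 2362, 1960 and 1671 TPM in the mutant, and the log2 fold change was -0.08 (SE 0.172). Both had adjusted p-values above 0.8 by limma, and their groups overlapped throughout. Both also followed the GC split without overlap. RPS25B had 1606 to 1734 TPM in the falling and 1073 to 1294 TPM in the rising samples, and RPS19B 2217 to 2575 TPM and 1671 to 1959 TPM. Wild type A has 2 falling samples and the double phosphomutant 1, and leaving out 1 sample turned the sign of both (RPS25B from -0.33 to 0.02, RPS19B from -0.23 to 0.04).

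RPS9A moved in the other direction in the double deletion. It had 141, 137 and 131 TPM in wild type B and 181, 195 and 151 TPM in the double deletion, without overlap, a log2 fold change of 0.35 (SE 0.124, 95% interval 0.08 to 0.62). The limma p was 0.015 and the adjusted p 0.90, so that it was not called. The single deletions left RPS9A close to wild type, with 140, 129 and 147 TPM in the yhp1 deletion and 158, 132 and 119 TPM in the yox1 deletion. In yhp1-13A it had 276, 191 and 171 TPM and in yox1-9A 335, 335 and 221 TPM. The 2 sets were fitted apart and the contrasts of both double mutants were not tested against each other. When the first residual component entered the model by its sign, RPS9A was called in the double deletion (0.41, limma adjusted p = 0.091), and with a replicate block and a GC slope together it was called lower in the double phosphomutant (-0.52, limma adjusted p = 0.064).

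Among phosphomutant samples the level of RPS9A followed the GC split. The 6 samples with a falling trend had 232 to 352 TPM and the other 6 had 131 to 221 TPM, without overlap and in every strain. Within the falling samples the log2 fold change of the double phosphomutant was -0.58 (1 mutant and 2 wild type samples). Within the rising samples it was -0.27 (2 mutant samples and 1 wild type sample). The coding GC content of RPS9A itself, 42.9%, is close to the members' median. RPS9B, the major copy, had 3130 TPM ± 233 in wild type A and 3229 TPM ± 220 in the double phosphomutant. The copies of RPS9 are shown over coding bases 220 to 294, where they differ most, with the 12 differing bases in capitals.
RPS9A: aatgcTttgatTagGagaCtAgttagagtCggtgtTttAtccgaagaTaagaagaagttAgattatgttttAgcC
RPS9B: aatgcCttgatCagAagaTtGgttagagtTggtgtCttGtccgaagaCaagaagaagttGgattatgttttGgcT
The copies shared 90.9% of their coding bases, with a longest shared run of 76 bases, and every stretch of 100 bases was unique. Upstream they differed too, as the 500 bases before RPS9B hold a CCNTACAT match 219 bases before the start codon (chrII:604267-604318) and those before RPS9A hold none.
RPS9B: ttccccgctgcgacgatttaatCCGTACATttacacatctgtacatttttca

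The split touched other members in opposite directions. Across the phosphomutant samples 19 of 56 members (33.9%) did not overlap between falling and rising samples, close to the 32.6% of all tested genes, so the share says nothing particular of the members. Of these, 12 were higher in the rising samples and 7 in the falling samples. RPS2 had 1805 to 2196 TPM in the falling samples and 2794 to 3077 TPM in the rising samples. RPS20 had 8710 to 10220 TPM in the falling and 6780 to 8185 TPM in the rising samples. The split also parted copies that encode nearly the same protein. RPS16A, for a head protein that reaches the P site, had 3900 to 4549 TPM in the falling samples and 3290 to 3885 TPM in the rising samples, whereas RPS16B had 2100 to 2452 TPM and 2520 to 2845 TPM. RPS16A and RPS16B have coding GC contents of 39.8% and 43.8%. The medians of all members on either side were close, at 43.2% GC for the 12 and 42.7% GC for the 7. In the deletion set, 1 member (RPS4B) was parted by the split, beside 1.3% of all tested genes.

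**Figure D3:**
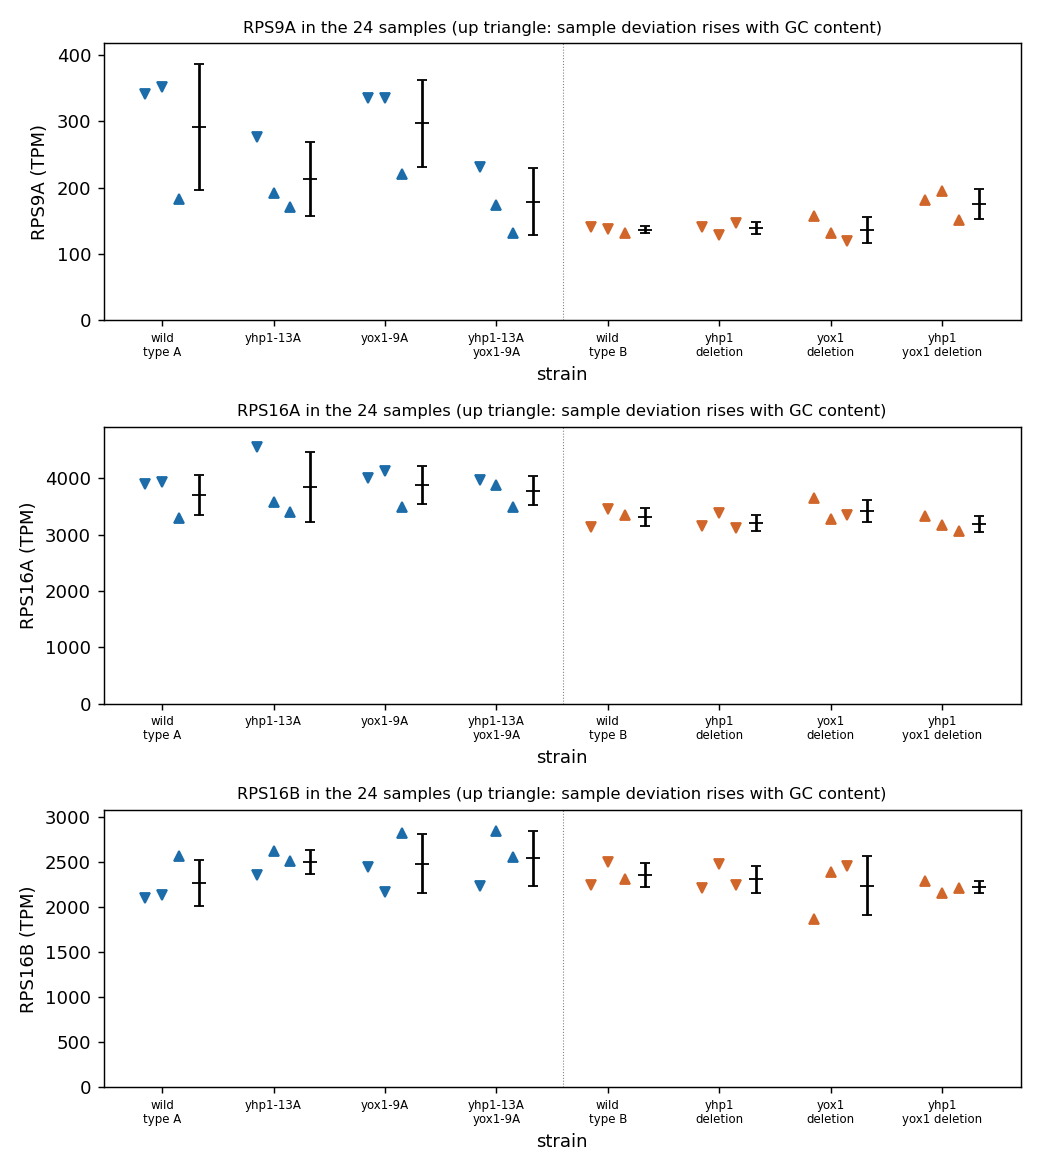
TPM of RPS9A, RPS16A and RPS16B in the 24 samples by strain (blue, phosphomutant set; orange, deletion set), with the mean and SD of each strain (n = 3) in black. Triangles point up in samples whose deviation rose with GC content. In the phosphomutant set RPS9A and RPS16A were lower, and RPS16B higher, in every sample with an upward triangle.

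In the double deletion the largest increases after RPS9A were small. RPS6A had 1148, 900 and 1136 TPM in wild type B and 1194, 1106 and 1207 TPM in the double deletion, with overlap and a log2 fold change of 0.15 (SE 0.106). RPS26A had 5488, 4857 and 6530 TPM in wild type B and 6136, 5918 and 5817 TPM in the double deletion, all within the wild type range (0.09, SE 0.095). The largest decreases were those of RPS21A (-0.12, SE 0.072), RPS0B (-0.10, SE 0.085) and RPS28B (-0.09, SE 0.115). RPS21A had 2029, 2146 and 2124 TPM in wild type B and 1939, 1908 and 1957 TPM in the double deletion, without overlap. RPS0B, for a protein of the body that many eukaryotes share with a laminin receptor, had 2566, 3003 and 2475 TPM in wild type B and 2570, 2432 and 2488 TPM in the double deletion. RPS28B, whose protein lies by the mRNA exit channel, had 1088, 1177 and 1075 TPM in wild type B and 1062, 1015 and 1058 TPM in the double deletion, just below wild type in all 3. RPS6A, RPS26A, RPS21A, RPS0B and RPS28B all had a limma adjusted p of 0.98.

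The yox1 deletion held the most members at an unadjusted p below 0.05. Here 44 of 56 members were below wild type on average, and 8 had an unadjusted limma p below 0.05, all lower, although none was called (adjusted p from 0.87 to 0.97). The background in this direction was 1.44% of all tested genes. The 8 were RPS10A, RPS10B, RPS17B, RPS18A, RPS23B, RPS29A, RPS30A and RPS31, with log2 fold changes from -0.22 (RPS30A) to -0.17 (RPS23B). RPS30A, for a protein of the mRNA entry side, had 5068, 5048 and 5580 TPM in wild type B and 3952, 4595 and 4935 TPM in the yox1 deletion, without overlap. RPS29A, for a small head protein, had 2761, 2802 and 3235 TPM in wild type B and 2465, 2447 and 2679 TPM in the yox1 deletion, again without overlap. RPS31 had 8755, 8522 and 10344 TPM in wild type B and 7059, 7894 and 9017 TPM in the yox1 deletion, with overlap. In all, 6 members were lower without overlap, where 2.69% of all tested genes were. In the 3 genes given here wild type B replicate 3 was the highest sample and yox1 deletion replicate 1 or 2 the lowest.

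The count rested on single samples. It was 0 without wild type B replicate 3, 4 without yox1 deletion replicate 1 and 2 without yox1 deletion replicate 2, and between 6 and 12 without each of the other samples. In the double deletion RPS30A had 5271 TPM ± 105 and RPS31 9505 TPM ± 234, level with wild type B. The double deletion differs from the yox1 deletion in YHP1, in LEU2 and in the marker at YOX1, which cannot be told apart. The yhp1 deletion had RPS30A at 4955 TPM ± 210 and RPS31 at 9006 TPM ± 425.

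The test of the interaction asked if the effect of one mutation on a member depended on the other. No member was called in either set (0.0317% of all tested genes were among the phosphomutants and 0.19% among the deletions). At an unadjusted limma p below 0.05 there were 0 members for the phosphomutants, where 1.74% of all genes were, and 10 for the deletions, where 6.51% were. RPS10A had the smallest p, with an interaction of 0.29 on the log2 scale (limma adjusted p = 0.65, unadjusted 0.013). It had 5080 TPM ± 197 in wild type B, 4703 TPM ± 320 in the yhp1 deletion, 4491 TPM ± 336 in the yox1 deletion and 5061 TPM ± 143 in the double deletion.

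RPS18A and RPS18B encode a head protein that contacts the P-site tRNA and the large subunit. RPS18A had 3612, 3582 and 3172 TPM in wild type A, 3555, 3494 and 3379 TPM in yhp1-13A, 3572, 3610 and 3380 TPM in yox1-9A and 3487, 3809 and 3112 TPM in the double phosphomutant. The 4 strains spanned the same range, and the log2 fold changes of the 3 mutants were 0.01, 0.03 and 0.00, each with an SE of 0.097. RPS18B had 3299, 3422 and 3191 TPM in wild type A, 3343, 3235 and 3293 TPM in yhp1-13A, 3298, 3385 and 3509 TPM in yox1-9A and 3342, 3338 and 3115 TPM in the double phosphomutant. Its log2 fold changes were -0.01, 0.04 and -0.02, each with an SE of 0.080, so that its 95% intervals stayed between -0.19 and 0.21.

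In the deletion set RPS18A had 2962, 2953 and 3313 TPM in wild type B, 3049, 2740 and 3067 TPM in the yhp1 deletion, 2660, 2629 and 2829 TPM in the yox1 deletion and 3200.1, 3020 and 3017 TPM in the double deletion. The yox1 deletion was the only strain whose samples were all below wild type, at -0.18 (SE 0.071, limma adjusted p = 0.97, unadjusted 0.024). In the yhp1 deletion, where the gene beside RPS18A was replaced by LEU2, the log2 fold change was -0.06 (SE 0.071), and in the double deletion 0.00 (SE 0.071). RPS18B had 2992, 3057 and 3175 TPM in wild type B, 2975, 2774 and 3017 TPM in the yhp1 deletion, 2408, 2893 and 3106 TPM in the yox1 deletion and 3119, 2959 and 3047 TPM in the double deletion. In the yox1 deletion, where the gene beside RPS18B was replaced by KanMX, the value of -0.14 (SE 0.085, limma adjusted p = 0.97) came mostly from replicate 1, and without it the value was -0.04.

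**Figure D4:**
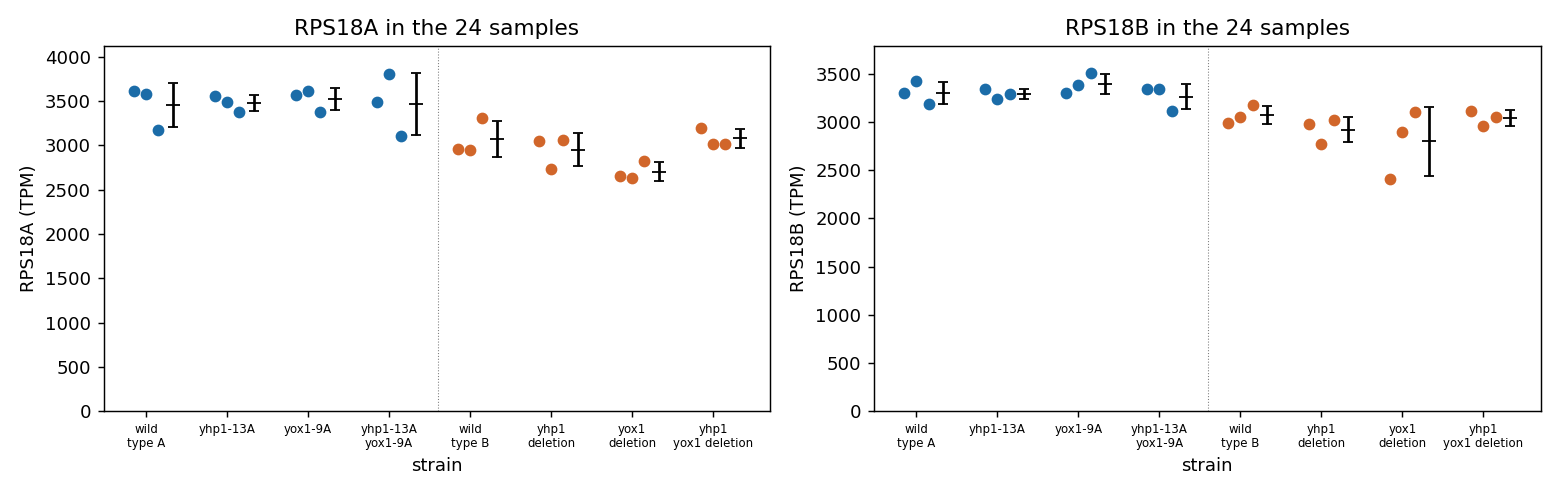
TPM of RPS18A (left) and RPS18B (right) in each of the 24 samples by strain (blue, phosphomutant set; orange, deletion set), with the mean and SD of each strain (n = 3) in black. All samples of RPS18A lie between 2629 and 3809 TPM and all of RPS18B between 2408 and 3509 TPM, and every mutant overlaps the wild type of its set except the yox1 deletion for RPS18A.

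The neighbouring loci gave another comparison, because 1 strain of each set lists no tag, marker or deletion at YHP1 (yox1-9A and the yox1 deletion) and 1 lists none at YOX1 (yhp1-13A and the yhp1 deletion). RPS18A had 3521 TPM in yox1-9A and a mean of 3467 TPM over the other strains of its set, a difference of 0.02 on the log2 scale (SE 0.079, 95% interval -0.15 to 0.20, limma adjusted p = 1.0). In the deletion set RPS18A had 2706 TPM in the yox1 deletion and 3036 TPM over the others, a difference of -0.16 (SE 0.058, 95% interval -0.29 to -0.04) with a limma p of 0.015 and an adjusted p of 0.56. RPS18B had 3290 TPM in yhp1-13A against 3322 TPM over the others (-0.01, SE 0.065) and 2922 TPM in the yhp1 deletion against 2973 TPM (-0.02, SE 0.070), both with a limma adjusted p of 1.0. No member of the pair was called by the state of its neighbour, where 0.633% and 0.0633% of all tested genes in the phosphomutant set and 0.666% and 0.333% in the deletion set were called in the contrasts for YHP1 and YOX1. With a replicate block and a GC slope in the fit, RPS18A in the deletion set was called (-0.18, limma adjusted p = 0.096). In that set the GC slope was falling in every yhp1 deletion sample and rising in every double deletion sample, so it partly followed strain. In this contrast an unaltered YHP1 locus, a deletion of YOX1 and the lack of a LEU2 marker cannot be told apart. In the phosphomutant set yox1-9A is likewise the only strain that lists no LEU2 marker. Against wild type B, RPS18A was 1 of 8 members of the yox1 deletion at an unadjusted limma p below 0.05, all lower. That count ranged from 0 to 12 with 1 sample left out.

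The larger copy of a pair was mostly the same across samples, while the shares themselves varied. Over the 24 samples the A copy ranged from 4.2% to 9.7% in RPS9 and from 37.1% to 50.5% in RPS29. In 19 of the 24 pairs the same copy was the larger in all 24 samples, and this was the A copy in 12 of them. The most unequal pair was RPS9, whose A copy gave 8.41% ± 2.13 (SD, n = 3) of the summed TPM in wild type A and 4.68% ± 0.43 in wild type B. RPS14 came next (A copy 88.7% ± 1.43 and 90.7% ± 0.70). RPS22, for a protein of the body (82.3% ± 2.07 and 83.6% ± 0.59), RPS27 (17.4% ± 0.94 and 20.2% ± 2.27) and RPS25 (78.55% ± 3.24 and 81.21% ± 0.80) were also unequal, in an order that differed between the wild types and lay within their spread. The most equal pairs were RPS18, with A copy shares of 51.1% ± 1.21 and 49.98% ± 0.99, and RPS6, with 51.6% ± 2.41 and 49.0% ± 1.74. The value of RPS6 is uncertain, since long stretches of its copies are identical.

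**Figure D5:**
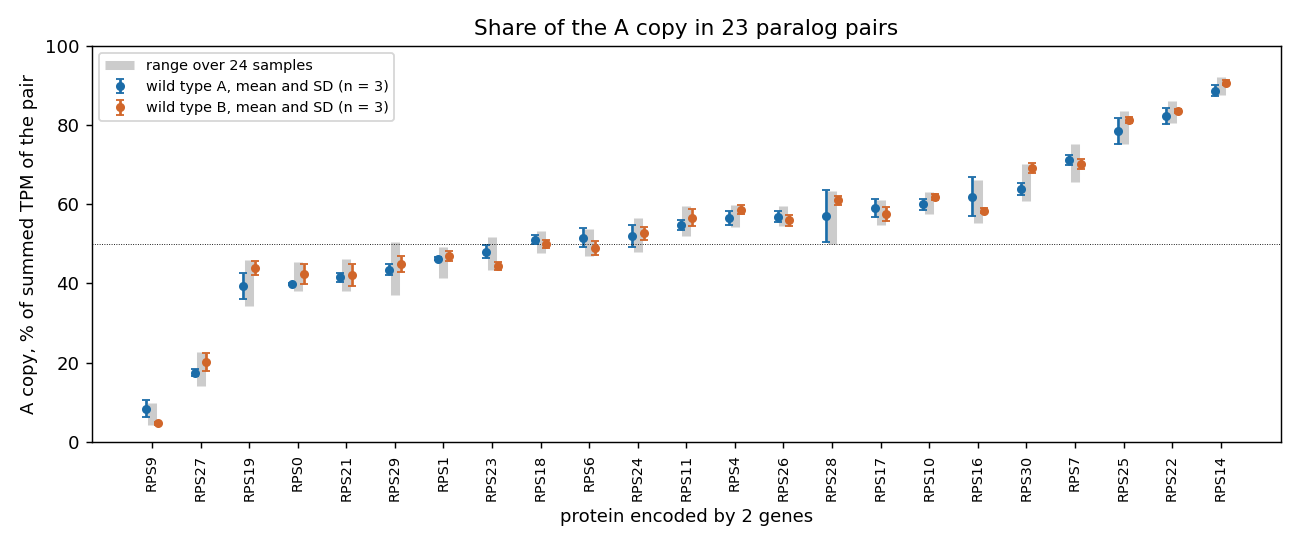
Share of the A copy in the summed TPM of 23 paralog pairs, as mean and SD (n = 3) in wild type A (blue) and wild type B (orange), with the range over all 24 samples in grey. RPS9 and RPS27 are carried by the B copy and RPS14, RPS22 and RPS25 by the A copy, while RPS18 and RPS6 lie at 50%.

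The median shift over 24 pairs, taken without sign, was 0.87, 0.69 and 1.22 percentage points in the yhp1, yox1 and double phosphomutants, and 0.54, 0.94 and 0.88 points in the yhp1, yox1 and double deletions. These medians rested on single samples. They reached 1.98 points in yhp1-13A without its replicate 1, 1.37 in yox1-9A without its replicate 2 and 2.18 in the double phosphomutant without its replicate 1, and 2.0 in the last without wild type A replicate 3. With each sample left out in turn they lay between 0.47 and 1.98, 0.65 and 1.37, and 0.81 and 2.18 points for the phosphomutants and between 0.34 and 0.73, 0.79 and 1.67, and 0.40 and 1.09 points for the deletions. The largest shift was that of RPS9 in the double phosphomutant, where the A copy shifted by -3.18 points (5.23% ± 1.37 against 8.41% ± 2.13), with overlap. In the double deletion the A copy of RPS21 shifted by -3.16 points (38.97% ± 0.72 against 42.13% ± 2.77 in wild type B), without overlap. The A copies of RPS9 (5.74% ± 0.62) and RPS19 (45.71% ± 0.20 against 43.80% ± 1.76) lay above wild type B in all samples of the double deletion. The A copy of RPS23, for a protein of the decoding centre, lay above wild type B in the yox1 deletion (45.87% ± 0.46 against 44.46% ± 1.02). Among the phosphomutant samples 8 pairs had shares that did not overlap between samples falling and rising with GC content, among them RPS16, with the A copy at 62.0% to 65.8% and at 55.3% to 57.7%. No test was made of the shares.

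None of 12 listed regulators of ribosomal protein genes was called in any of the 6 comparisons, and 0 had an unadjusted limma p below 0.05. RAP1 had 59.4 TPM ± 5.62 in wild type A and 52.9 TPM ± 8.20 in wild type B, and its log2 fold changes lay between -0.13 and 0.12. FHL1 had 23.1 TPM ± 2.25 and 21.3 TPM ± 4.26, with changes between -0.32 and 0.18. IFH1, the coactivator that Fhl1 recruits, gave the largest value, with 32.2 TPM ± 9.37 in the double phosphomutant against 47.7 TPM ± 12.8 in wild type A (-0.55, SE 0.279, limma adjusted p = 0.83, unadjusted 0.072), and 26.2 TPM ± 5.87 in wild type B. The corepressor gene CRF1 stayed between -0.14 and 0.04, SFP1 between -0.16 and 0.19, and the HMG-box gene HMO1, with 373 TPM ± 38.2 and 418 TPM ± 34.7, between -0.15 and 0.06. The kinase genes SCH9, TOR1 and TOR2 lay between -0.08 and 0.20, -0.14 and 0.06, and -0.16 and 0.03, and KOG1, for a subunit of the Tor complex, between -0.07 and 0.17. MRS6, whose product binds Sfp1, lay between -0.12 and 0.01, and UTP22, for an assembly factor that also binds Ifh1, between -0.18 and 0.09.

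Genes that work with the small subunit were equally without calls. Of 65 listed 40S assembly factors 64 were tested, and 0 were called in the 6 comparisons. Their medians were -0.18, -0.03 and -0.20 in the yhp1, yox1 and double phosphomutants, and 0.03, -0.12 and 0.06 in the yhp1, yox1 and double deletions. The medians of the members were therefore above those of the assembly factors in the 3 phosphomutants and in the yox1 deletion. Of 4 genes for 40S-associated proteins 0 were called, and ASC1, for a scaffold protein on the head, had 2118 TPM ± 586 in wild type A and 2605 TPM ± 537 in the double phosphomutant (0.31, SE 0.235). The 81 genes of 60S proteins and 20 genes of mitochondrial small subunit proteins had 0 calls too. The mitochondrial genes had medians of -0.16, -0.10 and -0.25 in the phosphomutants and -0.02, -0.20 and 0.19 in the deletions.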

How the data were processed

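RNA-seq libraries of 24 samples (8 groups of 3) were used, and no sample or sample column was left out (0 columns unused). Alignment to R64-1-1 used STAR 2.5.3a, and featureCounts 1.5.2 counted exonic fragments whose mapping quality exceeded 20. The authors deposited TPM values, which are relative to gene length and to the sum of each sample. How counts became TPM is not given in the sources used here. The labels name polyA depletion and the methods poly-A purification.

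Tests used limma 3.58.1 (R 4.3.3) on log2(TPM + 1). Genes entered when their TPM averaged 1 or more across a set (6316 and 6311 genes). One model per set held its 4 groups, with eBayes and a mean-variance trend. P-values were two-sided and corrected by the Benjamini-Hochberg method across every gene tested, with calls below 0.1. Fold changes of low genes are understated on this scale. Medians, shares and lists were not tested. Fragments recovered from TPM and length were whole (within 0.05) for 100% of values. The GC slope of a sample was fitted to its deviations from the average of its set, so it can also hold strain differences. A sample's trend is called falling or rising by the sign of this slope. Replicates are biological, and each group is 1 strain.

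The members and lists were chosen with earlier results of these data known. Genes named are RPS18A, RPS18B, the regulators, the 3 largest rises and falls in each double mutant, the 3 highest and lowest members, and the most equal and unequal pairs. Some members that enter the counts and fits are not reported here by name. Others, such as those at an unadjusted p below 0.05 in the yox1 deletion and those that follow the GC split, were chosen after their values were seen. Sequences and GC content came from RefSeq R64, which matched 6030 of 7126 identifiers (Python 3.11.15, Biopython 1.88), and all 56 members had the deposited length.

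Same-numbered samples deviated together in all 3 pairs of wild type A with yox1-9A (r from 0.52 to 0.83) and of wild type B with the yhp1 deletion (0.48 to 0.75). For the other mutants at least 1 pair with wild type did not. A replicate block was therefore an alternative. Further alternatives were a pseudocount of 0.1, no filter, a minimum mean of 10 TPM, scaling by median of ratios, fitting each pair of groups alone, eBayes without trend or robust, an adjusted p below 0.05, the GC slope, the sign of the first residual component, limma-voom on recovered fragments, and each sample left out. The procedures were tested on simulated data in which genes varied independently of each other. In the real samples 1 shared component held 63.3% (phosphomutant set) and 43.9% (deletion set) of the residual variance. The simulation did not cover such shared variation.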

Additional observations from a re-analysis of the deposited data

How the results depend on the processing

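Of 1726 values recomputed under the alternatives, 1695 kept their direction and their side of the threshold or moved by less than the spread between replicates. Many of these values are counts of calls that were 0 at first, and an adjusted p below 0.05 could only keep them at 0. A change of sign within 1 SE in a gene not called also counted as kept. The total is therefore no measure of stability. Scaling by median of ratios raised the members' medians to 0.16, 0.15 and 0.18 for the yhp1, yox1 and double phosphomutants (from 0.05 in each), and RPS18B then lay at 0.11 in yhp1-13A and 0.11 in the double phosphomutant (from -0.01 and -0.02). This scaling moves the median of all genes to about zero by construction. Putting the sign of the first residual component into the model called 1 member higher in the double deletion (RPS9A, 0.41, limma adjusted p = 0.091) and 1 of the 60S protein genes. The replicate block alone changed no call, with 0 members called in the 6 comparisons and in the interaction, and under it the members' median was 0.05 in the double phosphomutant and -0.01 in the double deletion. The replicate block together with the GC slope called 1 member lower in the double phosphomutant (RPS9A, -0.52, limma adjusted p = 0.064), 1 of the 60S protein genes in yox1-9A, and RPS18A by the state of the YHP1 locus in the deletion set (-0.18, limma adjusted p = 0.096). The cause of these calls was not tested. Over all alternatives, the adjusted p of RPS9A ran from 0.064 to 1.0 in the double phosphomutant and from 0.091 to 1.0 in the double deletion, and that of RPS18A by its neighbouring locus in the deletion set from 0.096 to 0.95.

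Leaving out 1 sample at a time called 0 members in any comparison. RPS9A in yox1-9A then ranged from -0.25 (without wild type A replicate 3) to 0.26 (without yox1-9A replicate 3), and RPS26A in the double deletion from -0.01 to 0.21. RPS9A in the double phosphomutant ranged from -0.99 to -0.48, and in the double deletion from 0.27 to 0.46. The count of 8 members at an unadjusted p below 0.05 in the yox1 deletion ranged from 0 to 12, an alternative added after the data were seen. No fit of only the groups compared exists for the interaction and the neighbouring loci, which use all 4 groups. Each member had at least 1520 fragments in every sample. What the number of replicates and their spread allowed is given by the intervals of the fold changes.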
